A study of Mus musculus with 8 samples.

Results

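Imprinted genes are transcribed from the allele of 1 parent, and the 10 genes described here all act on growth of the embryo or placenta: Igf2, Peg3, Dlk1, Peg10 and Mest from the paternal allele, and H19, Phlda2, Cdkn1c, Grb10 and Igf2r from the maternal allele. Members were taken as probe sets of the deposited table whose platform annotation was exactly 1 of these symbols. That gave 10 probe sets, of the 28898 that carried 1 gene symbol, for 6 of the 10 genes, among 17097 genes in all: Igf2 and Peg3 with 2 probe sets each, Grb10 with 3, and Dlk1, Phlda2 and Cdkn1c with 1 each. H19 and Peg10 had no probe set under that single symbol and were not analysed here. Igf2r and Mest were each on 1 probe set that was shared with a second gene, Airn and Copg2, and were left out for that reason. The expressed allele is textbook knowledge used to order the genes, and the arrays do not separate the alleles.

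The cells came from gastrulating mouse embryos that carried both a Mesp1-driven reverse tetracycline transactivator (Mesp1-rtTA) and a tetracycline-responsive histone H2B-GFP (Teto-H2B-GFP). GFP+ cells reported activity of the Mesp1 promoter, which is switched on in the earliest mesoderm. GFP- cells were everything else that survived sorting in embryos of that same genotype, so this fraction was a mixture. Both fractions were collected at embryonic day (E) 6.5 and E7.5, giving 4 groups with 2 arrays each, and each array held amplified RNA of 50 cells. The sources used here give neither strain nor inducer treatment. The labels call the arrays of a group biological replicates without naming embryos or litters, so a p-value measures the spread between these samples, which may be partly technical.

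Imprints are marks of DNA methylation and chromatin set in the germ line, and they keep 1 parental copy silent after fertilization. Many paternally expressed genes promote growth and many maternally expressed genes restrain it. Igf2 is a secreted growth factor, Dlk1 a transmembrane protein of the Notch ligand kind, and Peg3 a large zinc finger protein. Phlda2 is a small protein with a pleckstrin homology domain that restrains placental growth. Cdkn1c is the cell cycle inhibitor p57, and Grb10 is an adaptor that dampens signalling from insulin and IGF receptors. Phlda2 and Cdkn1c lie in a common imprinted cluster on distal chromosome 7, near that of Igf2 and H19.

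CpG dinucleotides are the sites at which methylation can be placed, so the promoter windows of 4 measured members are shown with them marked. Each window runs from 250 bases before to 50 bases after an annotated RefSeq start in GRCm38.p6, is written 5′ to 3′ along the gene, and has every CG in capitals. Phlda2 (chr7:143502475-143502774, minus strand), the member whose level differed most between the stages, held 26 CpG. Igf2 has 4 annotated starts, of which the window with the most CpG (chr7:142658755-142659054, minus strand) held 24. Dlk1 (chr12:109452573-109452872, plus strand) held 9. Grb10, the member with the steadiest level, has 2 annotated starts, and the window with more CpG (chr11:12037371-12037670, minus strand) held 45 and the other 9.
Phlda2: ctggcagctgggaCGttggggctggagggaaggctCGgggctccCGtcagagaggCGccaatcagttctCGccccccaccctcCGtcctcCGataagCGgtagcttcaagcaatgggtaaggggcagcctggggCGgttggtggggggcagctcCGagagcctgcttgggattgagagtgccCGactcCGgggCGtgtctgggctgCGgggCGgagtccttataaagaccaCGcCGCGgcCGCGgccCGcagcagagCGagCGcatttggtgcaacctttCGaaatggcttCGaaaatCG
Igf2: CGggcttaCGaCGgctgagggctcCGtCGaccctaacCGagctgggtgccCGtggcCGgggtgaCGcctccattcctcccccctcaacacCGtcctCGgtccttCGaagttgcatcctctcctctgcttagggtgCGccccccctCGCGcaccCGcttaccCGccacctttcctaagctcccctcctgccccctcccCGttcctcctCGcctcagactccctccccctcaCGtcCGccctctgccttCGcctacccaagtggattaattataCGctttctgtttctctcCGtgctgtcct
Dlk1: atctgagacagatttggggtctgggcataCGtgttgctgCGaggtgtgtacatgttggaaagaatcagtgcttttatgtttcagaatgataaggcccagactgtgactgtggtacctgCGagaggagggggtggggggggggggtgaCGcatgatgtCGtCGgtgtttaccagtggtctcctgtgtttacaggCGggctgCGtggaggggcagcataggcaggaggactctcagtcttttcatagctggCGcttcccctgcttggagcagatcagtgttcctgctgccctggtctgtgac
Grb10: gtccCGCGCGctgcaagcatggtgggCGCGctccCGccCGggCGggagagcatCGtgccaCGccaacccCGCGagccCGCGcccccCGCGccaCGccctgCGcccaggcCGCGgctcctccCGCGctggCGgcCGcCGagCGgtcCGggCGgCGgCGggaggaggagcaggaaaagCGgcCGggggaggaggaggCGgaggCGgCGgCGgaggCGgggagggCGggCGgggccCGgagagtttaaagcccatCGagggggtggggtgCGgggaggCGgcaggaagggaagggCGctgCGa

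Over 32851 RefSeq promoter windows of this length the median was 7 CpG, and 16.9% held at least as many as Phlda2, 20.0% as many as the Igf2 window shown, 45.8% as many as Dlk1 or the other Grb10 window and 1.93% as many as the Grb10 window shown. Of the 10 genes, 7 were in the RefSeq table, with 13 start sites, and 11 of the 13 windows held more CpG than the median. The number ranged from 2, at another Igf2 start, to 45 at Grb10. The letters TATAAA, searched on both strands, were found in 13.6% of all windows and among those of the 10 genes in Phlda2 alone, on the strand shown, 30 bases before the start. The letters TGCCGC, the core of the motif of the imprint keeper ZFP57, were found on either strand in 11.6% of all windows and in windows of Grb10, Igf2 and Mest, at another start than the one shown for Igf2. Such matches describe the letters only, and no methylation was measured in these samples.

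Values are log2 expression per probe set, and a difference of 1 is a doubling. For a gene with several probe sets the brightest on average was used, and levels are compared between samples and never between probe sets. All 10 probe sets passed the filter on low values, and all 80 values of the members lay above the filter value of 4.38, the lowest at 4.45. Tests were made with limma over 11706 genes with Benjamini-Hochberg adjustment, and a gene passed at an adjusted p under 0.05. The sorted fractions were checked with Mesp1, whose level was 5.64 and 6.26 in GFP- and 9.75 and 10.03 in GFP+ cells at E6.5. At E7.5 it was 7.76 and 8.06 against 8.75 and 8.65. The Mesp1 difference was 3.94 (SE 0.33) at E6.5 and 0.79 (SE 0.33) at E7.5, where it did not pass. By this gene the fractions were thus less separated at E7.5. The arrays of each replicate number shared an offset, with array medians of 4.20 to 4.23 for replicate 1 and 4.54 to 4.59 for replicate 2. For that reason differences within each replicate number are given beside the pooled ones, and values are written in the order replicate 1, replicate 2. The filter value lies between the medians of the replicate numbers, so being above it asked more of a replicate 1 array. In sorted pools, fewer cells of a type and less RNA per cell cannot be told apart.

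Igf2, Dlk1, Phlda2 and Cdkn1c were higher at E7.5 than at E6.5 in both fractions, Peg3 was low in the GFP- cells of E6.5 alone, and Grb10 differed little between any groups. With the stages compared over both fractions, Phlda2 rose. It was the only 1 of the 6 measured members to pass without a replicate block, against 0.256% of all genes tested in that comparison. With the replicate number as a block Phlda2, Dlk1 and Cdkn1c passed, against 0.803% of genes. The Phlda2 call depended on which arrays were kept, as given below. At E6.5 the members split by fraction without passing the test: Peg3, Phlda2, Dlk1 and Cdkn1c were higher in GFP+ cells and Igf2 was higher in GFP- cells. At E7.5 the fraction means of these 5 lay closer to each other than at E6.5, and those of Grb10 were close at both stages.

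**Figure D1:**
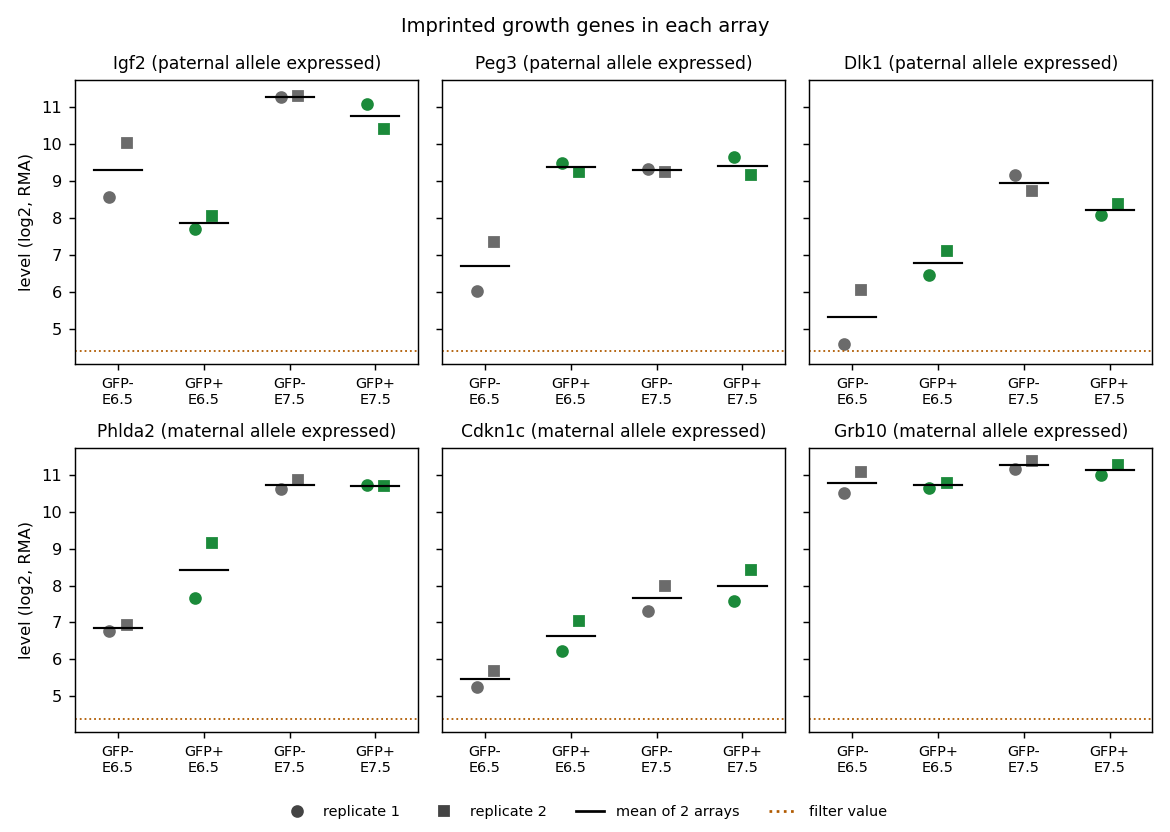
Log2 level (RMA) of the 6 measured members in each of the 8 arrays, by fraction and stage; circles are replicate 1, squares are replicate 2, bars are means of 2 arrays, and the dotted line is the filter value of 4.38. Phlda2 lies between 6.77 and 9.16 at E6.5 and between 10.61 and 10.86 at E7.5, Peg3 is low only in the GFP- arrays of E6.5, and Grb10 stays between 10.50 and 11.38.

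Among the paternally expressed genes, Igf2 measured 8.57 and 10.01 in GFP- and 7.68 and 8.03 in GFP+ cells at E6.5. At E7.5 it measured 11.25 and 11.29 in GFP- and 11.08 and 10.41 in GFP+ cells. Every E7.5 array was above every E6.5 array, and at each stage both GFP- arrays were above both GFP+ arrays. Group means ran from 7.86 ± 0.25 (SD, n = 2) in GFP+ cells at E6.5, through 9.29 ± 1.02 in GFP- cells at E6.5 and 10.74 ± 0.47 in GFP+ cells at E7.5, to 11.27 ± 0.03 in GFP- cells at E7.5. The difference between stages was 2.43 (SE 0.35; 5.40-fold), or 3.04 and 1.83 within replicates 1 and 2, with a limma adjusted p of 0.0618. It was 2.88 (SE 0.50, adjusted p 0.274) in GFP+ cells and 1.98 (SE 0.50, adjusted p 0.361) in GFP- cells, where it was 1.26 without GFP- E6.5 replicate 1.

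At E6.5 the GFP+ minus GFP- difference of Igf2 was -1.43 (SE 0.50, limma adjusted p 0.671), with -0.89 in replicate 1 and -1.98 in replicate 2. Its size rested on single GFP- arrays, being -2.15 without replicate 1 of GFP- E6.5 and -0.71 without replicate 2 of that group. At E6.5 the markers of visceral endoderm were likewise higher in GFP- cells. All 10 listed markers were above the filter value in both GFP- arrays of E6.5 and 6 of 10 in both GFP+ arrays, with mean marker levels of 6.39 and 8.30 against 4.32 and 4.71. The GFP- array with more of these markers was also the one with more Igf2. Apoa1, a lipoprotein gene of that tissue, stood at 7.42 and 9.02 in GFP- and 4.72 and 5.0 in GFP+ cells. At E6.5 trophoblast and extraembryonic ectoderm markers (8 of 12) averaged 5.90 and 6.64 in GFP- and 5.57 and 5.81 in GFP+ cells. These markers did not run together at that stage. Group means of GFP- and GFP+ cells were 9.20 and 4.87 for Rhox5, 5.69 and 3.87 for Elf5 and 5.26 and 3.99 for Wnt7b. Eomes (9.26 and 10.65) and Hand1 (5.59 and 7.29), also listed as mesoderm or extraembryonic mesoderm markers, ran the other way. Cdx2, Tfap2c and Ascl2 differed less. At E7.5, where Igf2 was higher in both fractions, the visceral endoderm mean was 4.85 and 6.25 in GFP- cells. It was 5.10 and 4.85 in GFP+ cells. The part of these cell types in the Igf2 difference was not tested.

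Peg3 measured 6.01 and 7.35 in GFP- cells at E6.5 and 9.48 and 9.24 in GFP+ cells of that stage. At E7.5 it measured 9.31 and 9.24 in GFP- and 9.64 and 9.16 in GFP+ cells. The GFP- arrays of E6.5 were thus lowest, and the other 6 arrays lay within 0.48 of each other and overlapped between groups. The difference between fractions at E6.5 was 2.68 (SE 0.46; 6.41-fold, limma adjusted p 0.149), or 3.47 and 1.89 within replicates 1 and 2. In GFP- cells the stages differed by 2.59 (SE 0.46, adjusted p 0.137), and in GFP+ cells by 0.04 (SE 0.46), with a 95% interval of -1.04 to 1.12.

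Dlk1 measured 4.57 and 6.05 in GFP- and 6.45 and 7.10 in GFP+ cells at E6.5, and 9.15 and 8.73 in GFP- and 8.08 and 8.36 in GFP+ cells at E7.5. Its order of fractions turned over between the stages: GFP+ arrays were above GFP- arrays at E6.5 and below them at E7.5, without overlap at either stage. Group means were 5.31 ± 1.05 and 6.78 ± 0.46 at E6.5 and 8.94 ± 0.29 and 8.22 ± 0.20 at E7.5 (GFP- first, SD, n = 2). The stages differed by 2.54 (SE 0.37; 5.80-fold, limma adjusted p 0.0603), or 3.10 and 1.97 within replicates 1 and 2. With the replicate number as a block the adjusted p of that difference was 0.0433, which passed. In GFP- cells alone the stages differed by 3.63 (SE 0.52; 12.4-fold, adjusted p 0.0848), and in GFP+ cells by 1.44 (SE 0.52). The probe set is of the kind that may match several transcripts, so its signal may not be that of Dlk1 alone.

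Among the maternally expressed genes, Phlda2 measured 6.77 and 6.94 in GFP- and 7.66 and 9.16 in GFP+ cells at E6.5. At E7.5 it measured 10.61 and 10.86 in GFP- and 10.72 and 10.69 in GFP+ cells. The 4 E7.5 arrays lay within 0.25 of each other and above every E6.5 array, whereas at E6.5 the GFP+ arrays were above the GFP- arrays and far from each other. Phlda2 rose by 3.09 (SE 0.34; 8.49-fold) from E6.5 to E7.5, or 3.45 and 2.72 within replicates 1 and 2, with a limma adjusted p of 0.0227, and 0.0211 with the replicate block.

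The Phlda2 call did not hold in every reduced set of arrays. The change stayed between 2.71 and 3.46 when arrays were left out 1 at a time, but the limma adjusted p was 0.112 without GFP- E6.5 replicate 1, 0.0687 without GFP- E6.5 replicate 2, 0.0840 and 0.109 without GFP- E7.5 replicates 1 and 2, and 0.0754 and 0.0974 without GFP+ E7.5 replicates 1 and 2. It was 0.0373 and 0.00957 without GFP+ E6.5 replicates 1 and 2. Without GFP- E6.5 replicate 2, Igf2 (2.79) and Dlk1 (2.91) passed in its place, each with an adjusted p of 0.0371. In GFP- cells the stages differed by 3.88 (SE 0.48; 14.7-fold), with 3.84 and 3.92 in replicates 1 and 2 and an adjusted p of 0.0606. It passed with the block (0.0344) and without either GFP+ E6.5 array (0.0243). In GFP+ cells the difference was 2.29 (SE 0.48, adjusted p 0.420), with 3.06 in replicate 1 and 1.52 in replicate 2.

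The mean of extraembryonic mesoderm markers was higher at E7.5, as was Phlda2. Their mean level over the 6 of 8 listed genes that were kept was 4.93 to 6.10 over the E6.5 arrays and 7.15 to 8.54 over the E7.5 arrays, with 4 or 5 and then 6 of the 6 above the filter value. Foxf1, a forkhead factor of this and other lateral mesoderm, stood at 3.88 and 4.95 in GFP- and 4.03 and 7.72 in GFP+ cells at E6.5, and at 8.53, 9.53, 8.50 and 8.77 in the arrays of E7.5. The GFP+ E6.5 array with the higher Phlda2 was the one with the higher Foxf1. Foxf1 is also among the genes most like Phlda2 over the arrays, given below. Between those GFP+ E6.5 arrays, Hand1 (6.26 and 8.32), Vim (6.09 and 7.17) and Pitx1 (4.74 and 5.37) ran the same way. Ahnak (4.47 and 3.86) ran the other way, and Bmp4 (3.97 and 4.16) lay below the filter value in both. Pitx1 was higher in replicate 2 in every group, so its order was not particular to the GFP+ E6.5 arrays. It differed little with stage, with group means of 5.05 to 5.56. Markers of trophoblast and extraembryonic ectoderm, the tissues in which Phlda2 is best known, were kept for 8 of 12 listed genes. Their mean levels were 5.57 to 6.64 at E6.5 and 5.98 to 7.52 at E7.5, which overlapped. This list shares Eomes with the mesoderm list and Hand1 with the extraembryonic mesoderm list, and its markers did not move together. Rhox5 measured 8.42 and 9.98 in GFP- and 4.71 and 5.02 in GFP+ cells at E6.5. At E7.5 Rhox5 was 9.77 and 7.12 against 5.62 and 6.07. Elf5 and Wnt7b were highest in GFP- E7.5 replicate 1, at 6.60 and 7.33. Ascl2 stayed between 4.53 and 5.49 in all arrays. Primitive erythroid and endothelial markers (6 of 9) had mean levels of 4.54 to 5.53 and of 5.07 to 6.46. Hbb-bh1, an embryonic globin, was above the filter value in the GFP- arrays of E7.5 alone, at 5.45 and 5.99. The part of these cell types in the Phlda2 change was not tested.

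Cdkn1c measured 5.26 and 5.70 in GFP- and 6.23 and 7.04 in GFP+ cells at E6.5, and 7.31 and 7.99 in GFP- and 7.57 and 8.43 in GFP+ cells at E7.5. Within each replicate number its order was the same, lowest in GFP- cells at E6.5, then GFP+ cells at E6.5, GFP- cells at E7.5 and GFP+ cells at E7.5, although the E7.5 fractions overlapped. The stages differed by 1.77 (SE 0.32; 3.40-fold), with 1.69 and 1.84 in replicates 1 and 2. The limma adjusted p was 0.110 without the block and 0.0159 with it. In GFP- cells the stages differed by 2.17 (SE 0.46), with an adjusted p of 0.217, and of 0.0286 with the block, and the fractions at E6.5 by 1.15 (SE 0.46, adjusted p 0.787), or by 0.75 without GFP+ E6.5 replicate 2.

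Grb10 measured 10.50 and 11.06 in GFP- and 10.64 and 10.78 in GFP+ cells at E6.5, and 11.17 and 11.38 in GFP- and 10.99 and 11.26 in GFP+ cells at E7.5. Its arrays covered less than 1 log2 unit, and the stages overlapped when the fractions were pooled. Within each fraction both E7.5 arrays were above both E6.5 arrays. The difference between stages was 0.45 (SE 0.22), with a 95% interval of -0.07 to 0.98 and a limma adjusted p of 0.799. It was 0.51 and 0.40 within replicates 1 and 2. With the replicate block its unadjusted limma p was 0.0172 and the adjusted p 0.246, which did not pass. The difference between fractions was -0.07 at E6.5, with a 95% interval of -0.81 to 0.67, and -0.15 at E7.5, with an interval of -0.89 to 0.59.

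**Figure D2:**
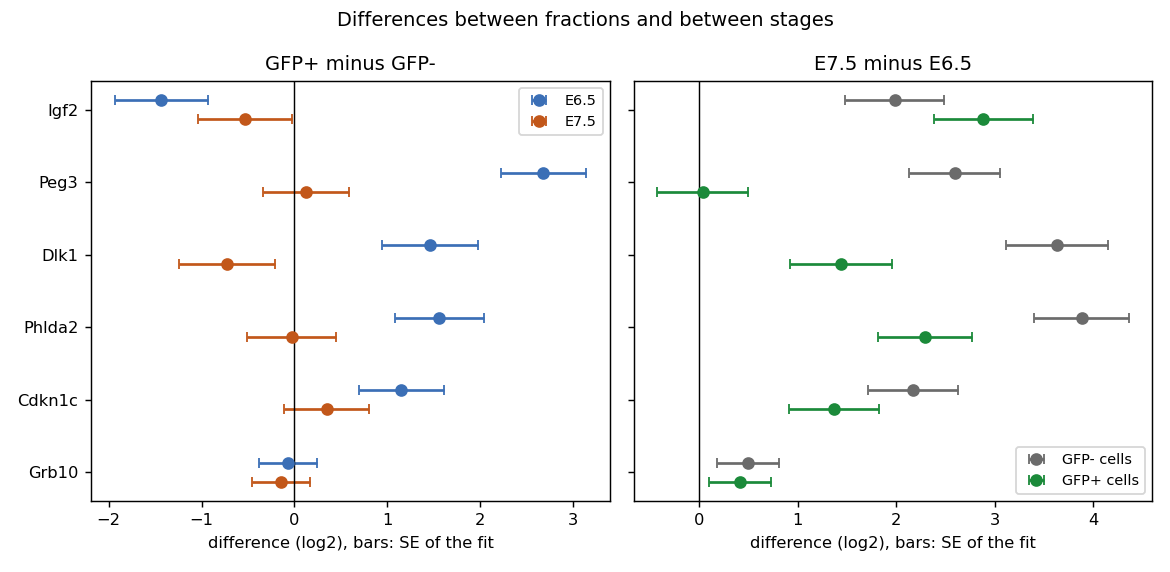
Difference in log2 level between fractions (left, GFP+ minus GFP-, at each stage) and between stages (right, E7.5 minus E6.5, in each fraction) for the 6 measured members; points are differences of group means and bars the SE of the limma fit. At E6.5 Igf2 lies at -1.43 and Peg3 at 2.68, the E7.5 fraction differences lie between -0.72 and 0.35, and the stage differences in GFP- cells lie between 0.49 and 3.88.

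Averaged over fractions, limma called 1 of the 6 measured members, and 3 with the replicate block (Phlda2, Dlk1 and Cdkn1c) against 0.803% of all genes. An unadjusted p under 0.05 was reached by 5 of the 6, against 7.2% of all genes. In 4 of 6, Igf2, Dlk1, Phlda2 and Cdkn1c, all 4 arrays of E7.5 lay above all 4 of E6.5, against 2.4% of genes, and 0 lay below, against 2.01%. The median of the 6 differences was 2.10, and -0.02 over all genes tested.

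Within GFP- cells limma called 0 of 6 members between stages, against 0.094% of genes, and 2 with the block (Phlda2 and Cdkn1c), against 0.333%. The unadjusted p was under 0.05 for 5 of 6 (6.48% of genes), and all 6 were higher at E7.5 without overlap (13.1% of genes), with a median difference of 2.38 against -0.01 over all genes. Within GFP+ cells 0 of 6 passed in limma with or without the block, against 0.0256% of genes. There, 4 of 6 had an unadjusted p under 0.05 (3.85% of genes) and 5 of 6, the exception being Peg3, were higher without overlap (11.8% of genes), with a median of 1.40 against -0.03.

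Between fractions at E6.5 limma called 0 of 6 members, with or without the block, against 0.0769% of genes, or 0.256% with it. An unadjusted p under 0.05 was reached by 5 of 6, against 5.73% of genes. Without overlap, 4 were higher in GFP+ cells, against 14.8% of genes, and 1 was lower, against 13.7%. The 4 higher members comprise both paternally expressed (Peg3, Dlk1) and maternally expressed genes (Phlda2, Cdkn1c), and the lower one, Igf2, is paternally expressed. Besides Peg3 and Igf2, given above, the differences were 1.56 (SE 0.48) for Phlda2, with 0.90 and 2.23 in replicates 1 and 2, and 1.46 (SE 0.52) for Dlk1, with 1.88 and 1.05. Both rested in part on 1 array: Phlda2 was 0.81 without GFP+ E6.5 replicate 2 and Dlk1 was 0.72 without GFP- E6.5 replicate 1.

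These fraction differences at E6.5 stood beside a difference in the make-up of the fractions. Mesoderm and streak markers (6 kept of 8 listed) averaged 5.68 and 6.54 in GFP- against 9.53 and 9.57 in GFP+ arrays. Epiblast markers (7 of 7) averaged 8.86 and 9.0 against 6.95 and 7.38. The epiblast differences were uneven, from -3.70 for Utf1 and -3.54 for Slc7a3 to -0.23 for Nanog and 0.06 for Pou5f1. In GFP- cells the mean levels at E7.5 were 8.10 and 8.22 for mesoderm and 7.36 and 7.35 for epiblast. The GFP- fraction itself thus differed between stages in the means of the same markers. In GFP+ cells the mesoderm level at E7.5 was 9.53 and 9.14, but its markers ran both ways between stages, with Aplnr at 2.14 and Tbx6 at 1.82, and Mixl1 at -1.89, Eomes at -1.49 and Mesp1 at -1.19. Epiblast markers in GFP+ cells averaged 6.19 and 5.78 at E7.5, below their E6.5 level. The part of cell make-up in the members' differences was not tested.

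Between fractions at E7.5 limma called 0 of 6 members with or without the block, and 0% of all genes. None of the 6 had an unadjusted p under 0.05, against 2.41% of genes. Igf2 (-0.53, SE 0.50) and Dlk1 (-0.72, SE 0.52) were lower in GFP+ cells without overlap, which held for 10.8% of genes, and 0 were higher without overlap, against 10.3%. The Igf2 difference was -0.87 without GFP+ E7.5 replicate 1 and -0.20 without replicate 2 of that group. The 95% intervals still allowed sizeable differences, from -1.71 to 0.65 for Igf2, -1.94 to 0.49 for Dlk1, -1.16 to 1.10 for Phlda2, -0.96 to 1.21 for Peg3 and -0.73 to 1.42 for Cdkn1c. Averaged over stages, 0 of 6 members passed in limma between fractions, against 0.00854% of genes, and 0 with the block, against 0.0683%. Of the 6, 2 had an unadjusted p under 0.05, against 5.47%. These were Peg3, at 1.40 (SE 0.33), and Igf2, at -0.98 (SE 0.35), or -0.62 without GFP- E6.5 replicate 2. In 0 of 6 were the 4 arrays of 1 fraction all above or all below those of the other, against 1.23% of genes higher and 1.61% lower in GFP+ cells.

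Whether the fraction difference itself changed with stage was tested as the interaction, the difference at E7.5 minus that at E6.5. Limma called 0 of 6 members and 0% of all genes, and 2 of 6 had an unadjusted p under 0.05, against 2.71% of genes. For Peg3 the interaction was -2.56 (SE 0.65; -3.14 and -1.98 in replicates 1 and 2) and for Dlk1 it was -2.18 (SE 0.73; -2.95 and -1.42), or -1.44 without GFP- E6.5 replicate 1. The comparisons of stages and of fractions share arrays, so the low GFP- arrays of E6.5 enter the fraction difference at E6.5, the stage difference in GFP- cells and the interaction alike.

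Where a member had several probe sets, these ran in the same direction in the comparisons with sizeable differences. The second Igf2 probe set measured 7.71 and 8.90 in GFP- and 6.21 and 7.06 in GFP+ cells at E6.5, and 10.76 and 10.57 against 10.45 and 9.79 at E7.5. Fitted with all probe sets, its stage difference was 2.92 (SE 0.36) with a limma adjusted p of 0.0369, which passed, while that of the brighter Igf2 probe set was 2.43 with 0.0750. The second Peg3 probe set measured 4.45 and 8.06 in GFP- and 9.24 and 9.59 in GFP+ cells at E6.5, a difference of 3.16 with an SE of 1.01. Its GFP- arrays were far apart, and both were below every other array of that probe set. The 3 Grb10 probe sets gave stage differences of 0.31, 0.44 and 0.45.

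**Figure D3:**
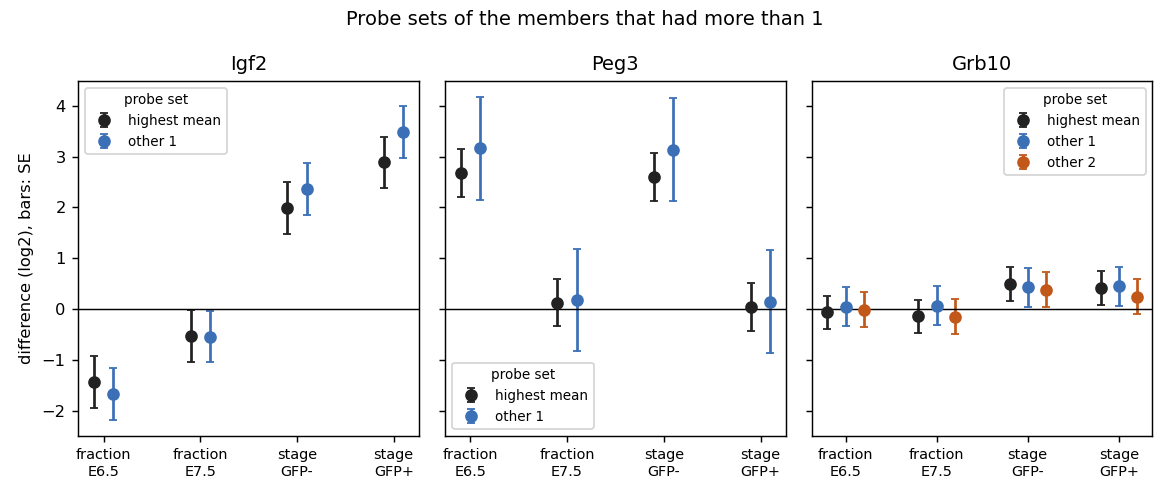
Differences in log2 level for each probe set of Igf2, Peg3 and Grb10 in 4 comparisons (fractions at E6.5 and at E7.5, stages in GFP- and in GFP+ cells); points are differences of group means and bars the SE of a limma fit over all probe sets. The Igf2 probe sets lie at -1.43 and -1.67 and the Peg3 probe sets at 2.68 and 3.16 for the fractions at E6.5, and all Grb10 points lie between -0.15 and 0.49.

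The genes whose values were most like each member were found as the highest Pearson r over the 8 arrays, after subtracting the mean of each replicate number. The arrays form 4 groups and each is 1 amplified pool of 50 cells, so r describes mainly the pattern over groups, and it carries no p. For Igf2 these were Slc39a8, a metal ion transporter (r = 0.993), Krt8, a keratin of simple epithelia (0.990), and Igf2os, which is transcribed opposite to Igf2 (0.985). For Phlda2 they were P3h2 (0.994), Pknox2 (0.987) and Foxf1 (0.985). For Cdkn1c they were Laptm4b (0.991), the homeobox gene Hoxb1 (0.988) and Rbm24 (0.987).

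Peg3 was most like Tyms, thymidylate synthase (r = 0.996), Hspa5, a chaperone of the endoplasmic reticulum (0.995), and Tle3, a transcriptional corepressor (0.994). Dlk1 was most like Ctxn1 (0.984), Parva (0.984) and Tspan6 (0.979), and Grb10 most like Tln2 (0.985), the caudal homeobox gene Cdx2 (0.981) and Phlda1 (0.973). At a lower bar, between 0.547% and 1.32% of all genes had r above 0.9 with a given member. Among the members themselves Phlda2 and Cdkn1c were most alike (r = 0.972), followed by Phlda2 and Dlk1 (0.944) and Igf2 and Grb10 (0.933), and Igf2 and Peg3 were least alike (0.262).

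The genomic neighbourhood was described by the 5 measured genes on each side of every member in RefSeq order, 48 genes that are no member. Limma called 0 of the 48 between stages averaged over fractions, against 0.256% of genes, and 0 with the block, against 0.803%. Between fractions at E6.5 it called 0, against 0.0769%. A difference above 1 in either direction was seen in 1 of 48 between stages, Zfp418 (-1.06). At E6.5 it was seen in 4 of 48 between fractions: Zfp418 (-1.37), Usp29 (1.57), Meg3 (-1.27) and Mirg (-2.29). The share of all genes above 1 was not counted. For scale, 4.71% of genes exceeded the 1.15 of Cdkn1c between fractions at E6.5. Between stages, 1.92% exceeded the 1.32 of Peg3, so these counts are not read as a result about the neighbours. Phlda2 and Cdkn1c are neighbours with Slc22a18, an organic cation transporter, between them. Slc22a18 differed between stages by 0.75 (SE 0.34, adjusted p 0.750) on the probe set used and by 0.01 on its other one. Kcnq1ot1, the paternally expressed non-coding RNA of that cluster, differed by -0.47 (adjusted p 0.825).

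At the Dlk1 cluster the maternally expressed non-coding RNAs Meg3, Rian and Mirg had another pattern than Dlk1. Meg3 measured 10.87 and 11.38 in GFP- and 9.77 and 9.93 in GFP+ cells at E6.5, and 10.29 and 11.17 against 9.29 and 10.04 at E7.5. Rian measured 10.76 and 10.43 against 9.74 and 9.53 at E6.5, and 10.12 and 10.26 against 9.19 and 8.67 at E7.5. Mirg measured 8.51 and 9.26 against 5.97 and 7.22 at E6.5, and 7.25 and 8.63 against 7.16 and 6.41 at E7.5. All 4 GFP+ arrays were below all 4 GFP- arrays for Meg3 and Rian, and narrowly for Mirg too, which held for 1.61% of all genes. At E7.5 the Mirg difference was -0.09 within replicate 1 and -2.22 within replicate 2. Averaged over stages the GFP+ minus GFP- differences were -1.17 (SE 0.30) for Meg3, -1.11 (SE 0.22) for Rian and -1.72 (SE 0.44) for Mirg, with limma adjusted p of 0.359, 0.219 and 0.359, so that none passed. Between stages they differed by -0.29, -0.55 and -0.38, against 2.54 for Dlk1.

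Usp29, which shares an imprinted region with Peg3 and is also paternally expressed, was 4.78 and 5.60 in GFP- and 6.62 and 6.90 in GFP+ cells at E6.5. At E7.5 it was 5.99 and 7.04 in GFP- and 6.41 and 7.20 in GFP+ cells. As for Peg3, the GFP- arrays of E6.5 were the lowest. The difference between fractions at E6.5 was 1.57 (SE 0.49, limma adjusted p 0.529) against 2.68 for Peg3, and the second Usp29 probe set did not pass the filter. Igf2os differed between stages by 0.60 (SE 0.29). Whether the labelled product kept its strand was not given in the sources used here, so the signals of Igf2 and Igf2os may not be separable.

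**Figure D4:**
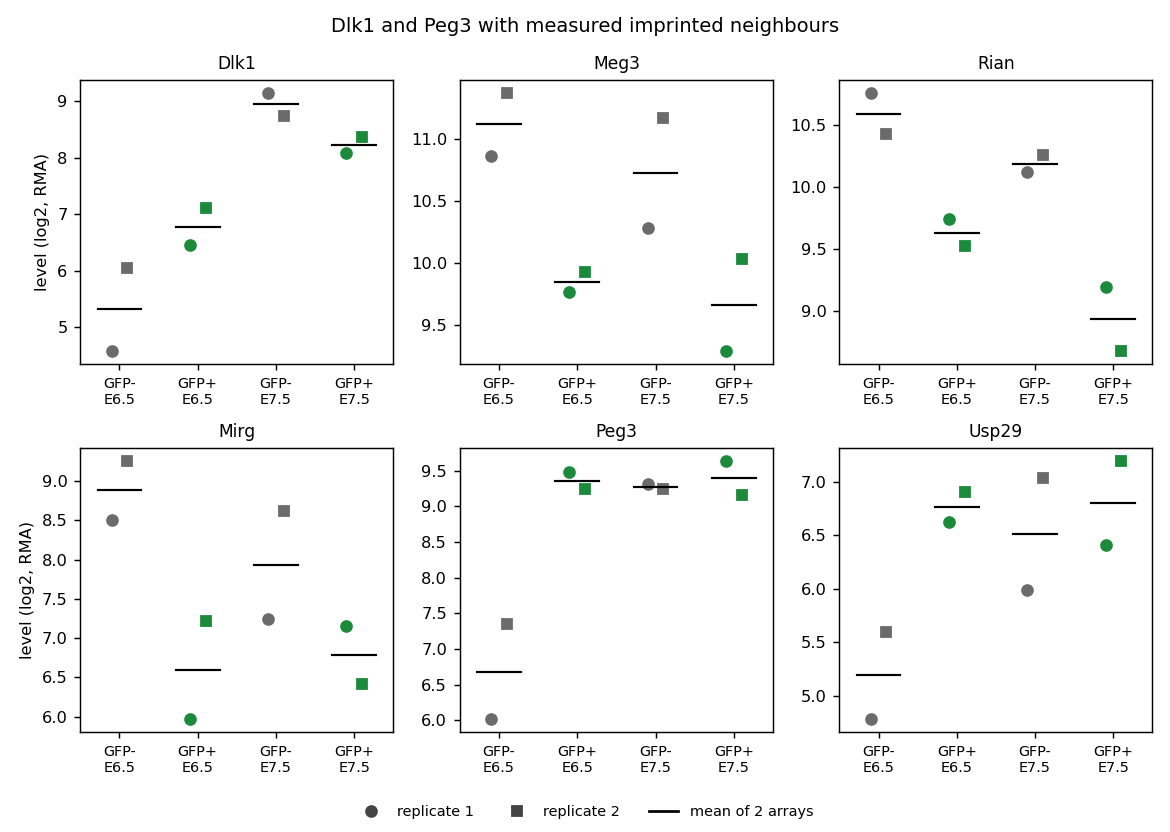
Log2 level (RMA) in each array, by fraction and stage, of Dlk1 with its neighbours Meg3, Rian and Mirg, and of Peg3 with its neighbour Usp29; circles are replicate 1, squares replicate 2 and bars means of 2 arrays, and each panel has its own axis. Dlk1 differs between stages by 2.54 while Meg3, Rian and Mirg are lower in GFP+ arrays at both stages, and both Peg3 and Usp29 are lowest in the GFP- arrays of E6.5.

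Other imprinted genes were taken from lists of 21 paternally and 23 maternally expressed genes, of which 14 and 15 were tested. Limma called 0 of them in any of the 7 comparisons, with or without the block. The stage differences had a median of 0.38 over the 14 paternally expressed genes, 10 of them positive. Over the 15 maternally expressed genes the median was -0.01, with 6 of them positive. Over all genes it was -0.02, with 46.3% positive. Ndn, a paternally expressed gene of the MAGE family, measured 4.33 and 4.59 in GFP- and 4.09 and 4.13 in GFP+ cells at E6.5, and 5.76 and 6.24 against 5.81 and 5.04 at E7.5. Its stages did not overlap and differed by 1.43 (SE 0.25, adjusted p 0.106), but both GFP+ arrays of E6.5 and replicate 1 of GFP- E6.5 lay below the filter value, so the size of the difference is uncertain in both fractions. Plagl1, a zinc finger regulator of the imprinted network, differed between stages by 2.30 (SE 1.04) with arrays of a group up to 4.23 apart. Its probe set is of a kind that may match other transcripts, and its other one failed the filter and differed by 0.32. Sfmbt2 differed by -1.62 (SE 0.87) between fractions, resting on GFP- E7.5 replicate 1 at 7.87 with its replicate at 3.37, and by -0.49 without that array. Its GFP+ arrays (3.30 and 3.48 at E6.5, 3.27 and 3.36 at E7.5) lay below the filter value. So did its GFP- values of 3.95 (E6.5 replicate 1) and 3.37, so that size is uncertain.

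Of the IGF signalling genes, which include the receptors and binding proteins that Igf2 and Grb10 act through, 13 of 16 were tested and limma called 0 in any comparison. Their median stage difference was 0.15, with 11 of 13 positive, against 46.3% of all genes. These directions are those of the probe set used for each gene. Igfbp4, a secreted protein that binds IGFs, measured 7.79 and 8.50 in GFP- and 9.79 and 9.31 in GFP+ cells at E6.5, and 10.21 and 10.20 against 10.89 and 10.11 at E7.5. Its stages did not overlap and differed by 1.5 (SE 0.28, adjusted p 0.120), with the same sign on its 6 probe sets. Igfbp5, a related binding protein, differed between stages by 1.26 (SE 0.45), but 3 of its 4 E6.5 arrays (3.48, 3.17 and 3.45) and GFP+ E7.5 replicate 1 (3.93) lay below the filter value, so that size is uncertain. Irs1, an adaptor of the insulin and IGF receptors, differed by -0.94 (SE 0.45) between fractions, with -1.75 and -0.12 within replicates 1 and 2. It was -0.42 without GFP- E6.5 replicate 1 and -1.45 without replicate 2 of that group.

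Of 16 genes that write or keep imprints, 12 were tested and limma called 0 in any comparison. Their median stage difference was -0.28, and 3 of 12 were positive, against 46.3% of all genes. The de novo DNA methyltransferase Dnmt3b measured 11.91 and 11.70 in GFP- and 11.06 and 11.06 in GFP+ cells at E6.5, and 11.09 and 11.24 against 9.96 and 9.69 at E7.5. GFP+ minus GFP- was -1.04 (SE 0.20, adjusted p 0.206) averaged over the stages, without overlap, and the stages differed by -0.94 (SE 0.20, adjusted p 0.172). Dnmt3a, its relative, differed between stages by -0.84 (SE 0.20, adjusted p 0.233), without overlap on the probe set used, and Tet3, which oxidises methylcytosine, by 0.73 (SE 0.43). The mean of the epiblast markers was lower in the same groups, at 8.86 and 9.0 in GFP- and 6.95 and 7.38 in GFP+ cells at E6.5. At E7.5 it was 7.36 and 7.35 against 6.19 and 5.78. Of these markers, Pou5f1 (0.06) and Nanog (-0.23) differed little between fractions at E6.5. The part of epiblast cells in these values was not tested.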

How the data were processed

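Log2 expression values of 8 Affymetrix mouse perfect-match arrays were used as the authors deposited them. Per the submitters' processing notes they were made with RMA, which corrects background, normalizes quantiles and summarises probes, with neither a version nor a genome build named in the sources used here. Whether all 8 arrays were normalized together is not known here, and the array medians differed by replicate number. Per the labels' protocols, 50 sorted cells gave each sample, and amplification was stopped after 25 cycles. The number of arrays limits the precision.

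Of 45141 probe sets, 104 were controls. In the platform annotation 28898 of the rest had 1 gene symbol, 551 several and 15588 none. Only those with 1 symbol were named, and they were kept when 2 or more of the 8 arrays exceeded the median over the whole deposited table (18584 probe sets, 11706 genes, 1 probe set of highest mean per gene). Limma 3.58.1 in R 4.3.3 (lmFit, eBayes) was fitted to all 8 arrays, 1 mean for each group and no block (residual degrees of freedom 4, prior 3.21). The 7 contrasts were adjusted by Benjamini-Hochberg, two-sided; fold is the power of 2 of a difference. The script was tested on simulated data.

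Across genes, arrays with the same number departed from their group means together in each of the 6 pairs of groups (r = 0.401 to 0.532), so the numbers pair the samples; the blocked value is given where it changes a call. The alternatives were the replicate number as a fixed or a random block (correlation 0.459), no filter, other use of probe sets, other normalization, an intensity trend, only the arrays of a contrast, and leaving out each array. The values of Irs1 and Sfmbt2 without 1 array were chosen after seeing the data.

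Genes other than the members were named by rule: of each list, those past the threshold and the 3 with the greatest change averaged over stages or fractions; per member, the 3 most alike; and markers of other cell types. The members and lists were chosen with earlier results of these data known. Neighbouring genes were added after the members' values were seen, among them Meg3, Usp29, Igf2os, Slc22a18 and Kcnq1ot1. Promoter windows come from RefSeq (GRCm38.p6).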

Additional observations from a re-analysis of the deposited data

Results flagged for a closer look

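Dlk1 was singled out because its fraction difference ran in opposite directions at the 2 stages in every replicate. GFP+ minus GFP- was 1.88 and 1.05 in replicates 1 and 2 at E6.5, and -1.07 and -0.37 at E7.5. The interaction was -2.18 (SE 0.73), with an unadjusted p of 0.0195 and a limma adjusted p of 1.00, so it did not pass over all genes. It stayed between -2.93 and -1.44 when arrays were left out 1 at a time. Groups of 2 arrays allow no check for outlying samples.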

How the results depend on the processing

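Members called between stages over both fractions, 1 of 6, became 3 with the replicate block, 4 with a random replicate effect, 2 with the mean of all probe sets, 3 with quantile normalization of all arrays, 4 with median centring, 3 with an intensity trend, and 0 to 2 when arrays were left out in turn. In GFP- cells, 0 became 2 with the replicate block, 4 with the random effect, 1 with the mean of probe sets, 2 with quantile normalization, 2 with median centring, 2 with the trend, and 0 to 1 with arrays left out. For the fractions at E6.5, 0 became 1 with the random effect (Peg3). The cause was not tested. Over all genes, calls between stages went from 30 to 94 with the block and 214 with the random effect, and in GFP- cells from 11 to 39 and 136. Between fractions at E6.5 they went from 9 to 30 and 118, averaged over stages from 1 to 8 and 111, and in GFP+ cells from 3 to 3 and 23. With the mean of probe sets, quantile normalization, median centring and the trend, calls over all genes between stages were 36, 50, 56 and 74. In GFP- cells they were 17, 26, 30 and 34.

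No member's difference changed sign under the other fits, filters, probe set rules and normalizations tried. With arrays left out in turn, small differences did: at E7.5 between fractions Phlda2 ran from -0.15 to 0.10, Cdkn1c from -0.081 to 0.78 and Peg3 from -0.12 to 0.37. Peg3 between stages in GFP+ cells ran from -0.20 to 0.28, and Dlk1 between fractions over both stages from -0.0015 to 0.74. Grb10 ran from -0.35 to 0.21 between fractions at E6.5, from -0.36 to 0.20 for the interaction and from -0.25 to 0.032 between fractions over both stages. With 2 arrays a group and 4 residual degrees of freedom, the SE of a member's difference between 2 groups reached 0.52.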
